A study of Mus musculus with 30 samples.

Results

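The replication-dependent histone genes were taken as every probe on the array whose gene symbol begins with Hist1h, Hist2h, Hist3h or Hist4h. The rule found 60 probes for 56 gene symbols, of 25697 probes for 18097 symbols on the array. By the kind of protein encoded, 6 of the probes were for linker histone H1, 15 for H2A, 16 for H2B, 12 for H3 and 11 for H4. By cluster, 47 probes were for Hist1 genes, 9 for Hist2, 3 for Hist3 and 1 for Hist4.

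The arrays (Illumina Mouse WG8-V2, bead arrays read in a single color) compared 5 rescue clones of Ainv15, a mouse embryonic stem cell (ESC) line that expresses the doxycycline-dependent activator rtTA. Each rescue clone other than the control carries an shRNA against 1 gene and a transgene of the same gene that escapes the shRNA and is on while doxycycline (Dox, 1 µg/ml) is present. The 4 clones Bub1b_R, Chek1_R, Ppm1g_R and Ppp2r1b_R, and the control Control_R, were each sampled with Dox and 5 days after Dox was taken away, with 3 arrays for each of the 10 conditions and 30 in all. The stock cultures were kept on feeder layers of primary mouse embryonic fibroblasts in serum with LIF, and by the study's account the profiled cultures were without feeders. The strain label 129P2/OlaHsd was given for Control_R alone. Control_R also carries sample numbers of an earlier deposit than the other clones, and whether its arrays were run together with theirs is not given in the sources used here, so clone and deposit cannot be told apart. Whether the 3 arrays under a clone's name come from 1 expanded line or several is not stated in the labels, and a trait of a clone cannot be told apart from what its shRNA does. The labels call the 3 arrays of a condition replicates without saying that they came from separate cultures, so p-values here measure the spread between these arrays, which may be technical.

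Histones are the proteins that DNA is wound around. Pairs of H2A, H2B, H3 and H4 form the core of the nucleosome, and H1 binds the DNA between cores. Most are made in S phase from genes that lie side by side in clusters, have no introns, and give mRNAs that end in a stem-loop, bound by SLBP, in place of a poly(A) tail. Because proliferating ESCs spend much of their cycle in S phase, they make a great deal of these mRNAs. The RNA was labelled with a kit that primes from poly(A) tails, and forms with and without a tail were not separated. Genes of one class have nearly the same coding sequence, the probe sequences were not used here, and a probe may therefore also read a sister gene.

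All 56 symbols matched 1 gene each in RefSeq, and 50 of them had a promoter window in RefSeq (GRCm38.p6), 51 windows in all, each from 250 bases before to 50 bases after an annotated start. The windows below belong to the linker histone genes Hist1h1c (now H1f2) and Hist1h1a (H1f1), which changed on Dox withdrawal, to Hist1h2ab (H2ac4) and Hist1h3c (H3c3), whose change differed from that in Control_R, and to the neighboring H3 genes Hist2h3b (H3c13) and Hist2h3c1 (H3c14), with large differences between clones. Hist1h3f and Hist1h2bc had no window. They are written 5′ to 3′ on the gene's own strand, and capitals mark CCAAT (the box of NF-Y), TATAAA (the TATA sequence), ATTTGCAT (the octamer) and, as known from H1 promoters, AAACACA, each on either strand.
Hist1h1c, chr13:23738557-23738856, + strand: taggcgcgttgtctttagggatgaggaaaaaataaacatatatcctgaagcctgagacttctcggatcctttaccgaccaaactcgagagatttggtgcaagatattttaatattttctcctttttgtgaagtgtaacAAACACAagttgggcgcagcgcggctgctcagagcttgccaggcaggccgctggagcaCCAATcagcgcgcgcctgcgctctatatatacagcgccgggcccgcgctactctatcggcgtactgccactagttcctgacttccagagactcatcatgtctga
Hist1h1a, chr13:23763418-23763717, + strand: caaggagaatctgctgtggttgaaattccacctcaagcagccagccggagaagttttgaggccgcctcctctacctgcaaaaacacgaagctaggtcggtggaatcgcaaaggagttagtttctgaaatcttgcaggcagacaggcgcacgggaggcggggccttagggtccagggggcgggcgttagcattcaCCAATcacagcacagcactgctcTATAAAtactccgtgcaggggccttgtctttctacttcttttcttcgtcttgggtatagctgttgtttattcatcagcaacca
Hist1h2ab, chr13:23750838-23751137, + strand: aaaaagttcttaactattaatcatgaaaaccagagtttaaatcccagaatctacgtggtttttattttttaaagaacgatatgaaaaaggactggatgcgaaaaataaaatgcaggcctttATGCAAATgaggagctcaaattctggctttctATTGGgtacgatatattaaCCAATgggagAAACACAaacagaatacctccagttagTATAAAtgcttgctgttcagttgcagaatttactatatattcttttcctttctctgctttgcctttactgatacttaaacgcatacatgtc
Hist1h3c, chr13:23745472-23745771, − strand: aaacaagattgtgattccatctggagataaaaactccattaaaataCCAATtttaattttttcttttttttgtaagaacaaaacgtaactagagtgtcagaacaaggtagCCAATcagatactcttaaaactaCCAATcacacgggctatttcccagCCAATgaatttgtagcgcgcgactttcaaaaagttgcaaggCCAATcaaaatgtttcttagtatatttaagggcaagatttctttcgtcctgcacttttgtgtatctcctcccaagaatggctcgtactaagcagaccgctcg
Hist2h3b, chr3:96268404-96268703, + strand: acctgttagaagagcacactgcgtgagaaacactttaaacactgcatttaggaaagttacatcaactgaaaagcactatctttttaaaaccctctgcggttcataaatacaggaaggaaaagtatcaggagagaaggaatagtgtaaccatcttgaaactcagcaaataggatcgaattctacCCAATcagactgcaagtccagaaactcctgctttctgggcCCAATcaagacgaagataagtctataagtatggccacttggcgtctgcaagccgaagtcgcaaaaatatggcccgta
Hist2h3c1, chr3:96246435-96246734, + strand: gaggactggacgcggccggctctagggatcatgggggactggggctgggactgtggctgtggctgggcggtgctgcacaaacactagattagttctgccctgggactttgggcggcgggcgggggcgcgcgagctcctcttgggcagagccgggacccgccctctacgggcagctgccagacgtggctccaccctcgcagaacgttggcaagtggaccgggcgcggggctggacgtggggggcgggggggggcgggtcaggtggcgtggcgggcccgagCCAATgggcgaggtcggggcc

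The letters CCAAT, which the factor NF-Y binds, stood in 43 of the 51 histone windows (84.3%) and in 37.4% of all 32851 promoter windows of the same length. They were in every window of H1 (6 of 6), H2A (15 of 15), H2B (13 of 13) and H3 (7 of 7), and in 2 of 10 windows of H4. The TATA sequence TATAAA was in 58.8% of histone windows against 13.6% of all. The octamer ATTTGCAT, which Pou-domain factors bind, was in 7 of 15 H2A and 7 of 13 H2B windows and in none of the H1, H3 or H4 windows, against 1.74% of all windows. AAACACA, a sequence known from H1 promoters, was in 5 of 6 H1 windows against 7.18% of all. In 6 head-to-head pairs of an H2A and an H2B gene on chromosome 13, such as Hist1h2ad with Hist1h2bf, the windows shared 220 to 279 bases, so that the same letters were counted for both genes. A match describes the letters in these windows and is not evidence that a factor was bound.

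The arrays formed 2 sets by signal level, which the labels do not name as batches. The lowest signal that counted as detected (detection p under 0.05) lay between 12.9 and 20.9 on the Bub1b_R and Control_R arrays (12) and between 27.8 and 58.1 on the other 18. Of all probes, 11733 to 13685 were detected per array, and replicate arrays correlated with r between 0.99 and 0.997 across tested probes. Of the 4 targeted mRNAs, that of Ppm1g fell in its own clone on Dox withdrawal (−1.25 log2, adjusted p 4.5e-09, limma). Bub1b changed by −0.14 (adjusted p 0.217) and Ppp2r1b by 0.2 (adjusted p 0.365), neither past the threshold, while Chek1 was higher without Dox by 0.71 and 0.51 on its 2 probes (adjusted p 0.00115 and 0.0132) and so ran opposite to the label's order. Against Control_R, Bub1b was lower in its own clone in both media (−0.67 without Dox and −0.7 with). Ppp2r1b was lower in its own clone with Dox (−0.61) and not past the threshold without (−0.25, adjusted p 0.158). Ppm1g differed in its own clone by −1.74 without Dox and by −0.33, under 1.5-fold, with Dox. Both Chek1 probes were lower than in Control_R in the clone labelled Chek1_R, by −1.36 and −1.07 without Dox. With Dox they differed by −1.87 each, which as bounds was at least 2.29-fold and 3.02-fold lower. The Chek1 rescue vector lacks the sequence that the shRNA targets, and whether these probes read the rescue copy was not tested. This clone is therefore written below as the arrays that carry the label Chek1_R.

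Between 37 and 46 of the 60 histone probes were detected on each array. In Bub1b_R, 45, 42 and 44 were detected on the 3 arrays with Dox and 46, 45 and 44 without. In Control_R the counts were 44, 45 and 42 with Dox and 45, 45 and 45 without. These were the highest, and the 12 arrays of both clones, 42 to 46 each, met the other 18 arrays, 37 to 42 each, at 42 alone.

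The arrays labelled Chek1_R had 41, 42 and 38 histone probes detected with Dox and 40, 40 and 41 without. Ppm1g_R had 37, 38 and 38 with Dox and 38, 40 and 38 without. Ppp2r1b_R had 38, 37 and 38 with Dox and 40, 37 and 39 without. Within each of the 5 clones the counts with and without Dox overlapped or met. The split between clones followed the split in the lowest detected signal, from which it cannot be told apart.

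**Figure D1:**
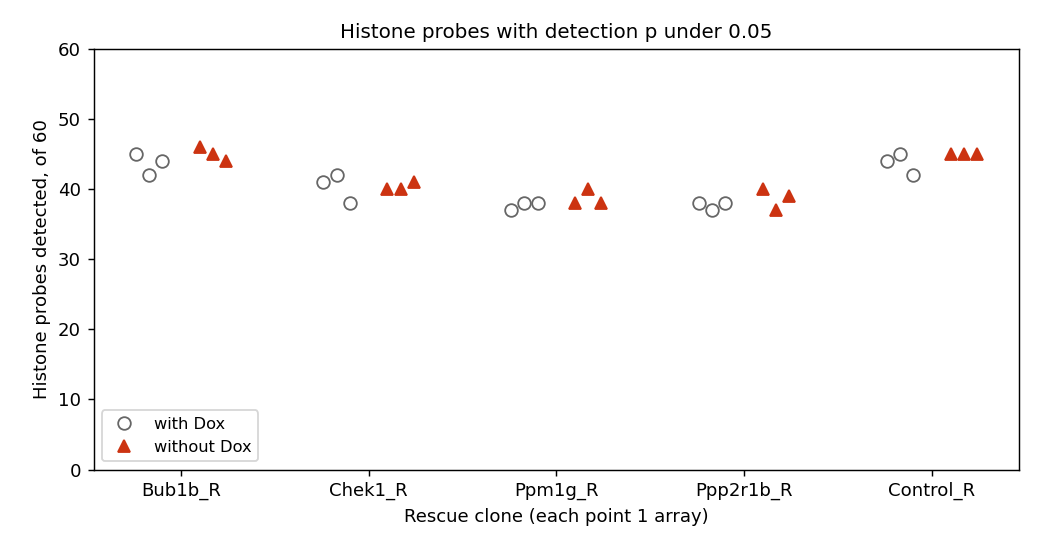
Number of the 60 histone probes with a detection p under 0.05 (y axis, count) on each of the 30 arrays, by rescue clone (x axis); open circles are arrays with Dox and filled triangles arrays without. The Bub1b_R and Control_R arrays sit at 42 to 46 and the others at 37 to 42, with little difference between the symbols within a clone.

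On all 3 arrays of a condition, 41 histone probes were detected with Dox and 44 without in Bub1b_R, 38 and 38 on Chek1_R-labelled arrays, 36 and 37 in Ppm1g_R, 35 and 36 in Ppp2r1b_R, and 41 and 42 in Control_R. That is 58.3% to 73.3% of the 60, where 43.8% to 48.5% of all probes on the array were detected on all 3 arrays of a condition. Over the series, 34 probes were detected on all 30 arrays, 14 on some and 12 on none. The 12 undetected probes were all 3 of the Hist3 cluster, those of the testis histones Hist1h1t and Hist1h2ba, those of the linker histone Hist1h1e and of Hist1h2ac, Hist1h2be and Hist1h2bg, and further probes of Hist1h2bc (1) and Hist1h3f (2). Hist1h1d and Hist2h2bb were detected on 2 arrays each.

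After quantile normalization, 46 of the 60 histone probes (45 symbols) were detected on at least 3 arrays and were tested together with all 15151 such probes. They were 3 of the 6 for H1, 13 of 15 for H2A, 9 of 16 for H2B, 10 of 12 for H3 and all 11 for H4. Of these, 34 were detected on every array and 12 on fewer. All levels below are log2 of the intensity after background correction, with an offset of 16 added to every signal and the arrays set to equal quantiles, and differences are taken between arrays for the same probe.

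Probes differ in how strongly they read their mRNA, so the following names where signal was highest and not which mRNA was most abundant. The probe of highest mean level in each class was Hist1h1c (mean level over the 30 arrays 9.41), Hist1h2ao (15.38, as for Hist2h2ac), Hist1h2bf (9.81), Hist2h3b (11.79) and Hist1h4f (8.56). The Hist1h2ao signal was 72.3% to 100% of the highest signal of any probe on its array. A probe at the top of its array is set near a fixed ceiling, here 15.5, by equal quantiles, so the 0.26 log2 between the highest and lowest condition of Hist1h2ao is no measure of its variation. Before normalization its signal ran from 24717 to 60211.6.

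Across the 10 conditions, the difference between the highest and the lowest condition mean of a histone probe was 0.19 to 1.7 log2, with a median of 0.97, beside a median of 0.82 over all tested probes. The median standard deviation between arrays of a condition was 0.11 for histone probes and 0.14 for all. The smallest range, 0.19, was that of Hist2h2ac, which lies at the same ceiling as Hist1h2ao, and the largest that of Hist1h3h.

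The highest mean lay in Bub1b_R without Dox for 26 of the 46 histone probes (56.5%), beside 15.4% of all tested probes. By class these were 7 of 9 for H2B, 9 of 11 for H4, 6 of 10 for H3, 3 of 13 for H2A and 1 of 3 for H1. In 15 of the 26, the next highest condition was Bub1b_R with Dox. The lowest mean lay in Ppp2r1b_R without Dox for 16 probes (34.8%), beside 19.5% of all, with 7 of the 9 H2B and 5 of the 10 H3 probes among them. When the arrays were scaled to one median in place of equal quantiles, the shares were 56.5% for Bub1b_R (26.8% of all probes) and 21.7% for Ppp2r1b_R (16.7% of all). These are counts over probes that may read each other's mRNA, without a test.

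Hist1h2bf, an H2B gene, shows the order. With Dox its level was 10.15, 10.15 and 10.17 in Bub1b_R, 9.89, 9.68 and 9.81 in Control_R and 9.45, 9.55 and 9.38 in Ppp2r1b_R. Without Dox it was 10.44, 10.43 and 10.37 in Bub1b_R, 10, 10.16 and 9.95 in Control_R and 9.31, 9.25 and 9.31 in Ppp2r1b_R. The 3 clones did not overlap in either medium, and the levels on Chek1_R-labelled arrays and in Ppm1g_R, 9.63 to 9.9, lay between those of Bub1b_R and Ppp2r1b_R.

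Taking Dox away changed few histone probes. At an adjusted p under 0.05 (limma, Benjamini-Hochberg over the 15151 probes) and at least 1.5-fold, 2 of 46 changed in Bub1b_R (5.60% of all probes did, in either direction), 1 on Chek1_R-labelled arrays (9.27%), 0 in Ppm1g_R (4.37%), 1 in Ppp2r1b_R (4.82%) and 0 in Control_R (1.10%). All 4 calls were rises (2.94%, 4.49% and 2.77% of all probes rose in the 3 clones in that order), and they belonged to 3 genes, the linker histones Hist1h1a and Hist1h1c and the H3 gene Hist1h3f. The histone share, 4.35% in Bub1b_R, 2.17% on Chek1_R-labelled arrays and in Ppp2r1b_R and 0 elsewhere, rests on too few calls to be set apart from that of all probes. For the counts of 0, an unadjusted p under 0.05 (limma) was reached by 9 of 46 probes in Ppm1g_R, beside 5139 of all 15151. In Control_R 20 of 46 reached it, beside 3292 of all. A t-test on each probe, at an unadjusted p under 0.05 and 1.5-fold, also called 0 in both clones.

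Changes under 1.5-fold were more frequent. With the adjusted p as the sole criterion, 11 of 46 probes were higher without Dox and none lower in Bub1b_R (11.6% of all probes were higher and 12.8% lower), and 11 were higher and none lower in Control_R (4.07% and 3.48% of all). On Chek1_R-labelled arrays 6 were higher and none lower (14.5% and 16.5% of all), in Ppm1g_R 5 higher and 2 lower (11.6% and 11.7%), and in Ppp2r1b_R 3 higher and 4 lower (12.4% and 12.9%).

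The median change of the 46 probes was 0.16 log2 in Bub1b_R and 0.17 in Control_R, and −0.01 to 0.01 in the other clones, beside −0.02 to 0 for all probes. It was positive for 37 of 46 probes in Bub1b_R and 36 in Control_R, and for 22 to 24 in the others. In Control_R the probes whose 3 arrays without Dox all lay above the 3 with Dox numbered 19 (13.0% of all probes) and those below 2 (13.2%). In Bub1b_R they numbered 19 (20.4%) and 0 (21.0%). The small upward shift in histone signal after 5 days without Dox was therefore seen in the control clone too, and both clones belong to the array set with the lower detection limit, whose part in it was not tested.

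**Figure D2:**
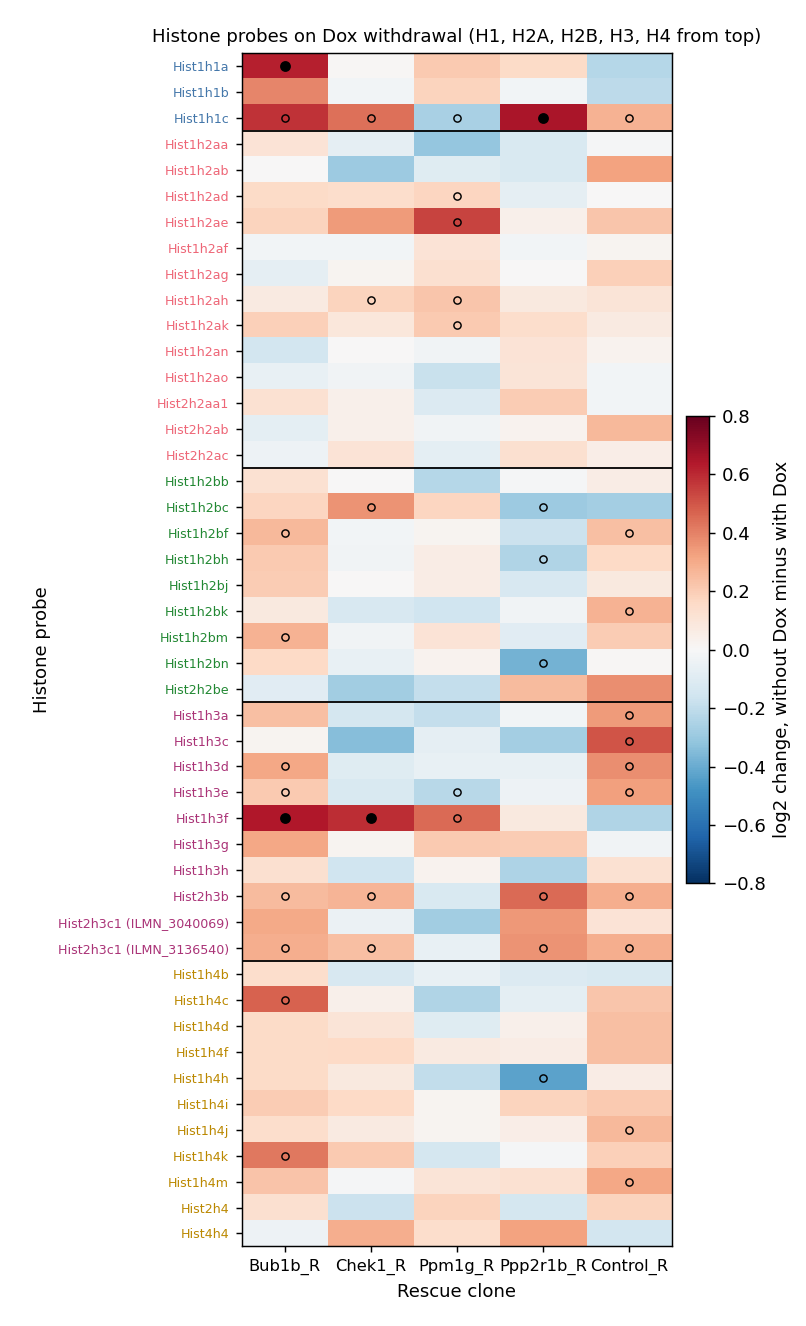
Change in level on Dox withdrawal (color, log2, without minus with Dox, mean of 3 arrays each) of the 46 tested histone probes (rows, grouped as H1, H2A, H2B, H3 and H4 from the top) in each rescue clone (columns). Filled dots mark the 4 calls at an adjusted p under 0.05 and 1.5-fold and open dots an adjusted p under 0.05 with a smaller change; the Bub1b_R and Control_R columns are mostly positive.

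Among the linker histones, Hist1h1c differed between the media in every clone. Its level was 9.26, 9.23 and 9.22 with Dox and 9.78, 9.82 and 9.86 without in Bub1b_R. On Chek1_R-labelled arrays it was 8.65, 8.69 and 8.61 with Dox and 9.08, 9.07 and 9.11 without. In each of these clones the groups stood well apart.

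In Ppp2r1b_R, Hist1h1c was at 9.05, 8.9 and 8.94 with Dox and 9.59, 9.5 and 9.76 without. In Control_R it was at 9.53, 9.61 and 9.66 with Dox and 9.87, 9.85 and 9.9 without. In Ppm1g_R it went the other way, from 9.76, 9.78 and 9.73 with Dox to 9.48, 9.41 and 9.61 without. All 9 array pairs ran in the clone's direction in each of the 5 clones.

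The change of Hist1h1c in Ppp2r1b_R, 0.65 log2 (SE 0.06, adjusted p 4.74e-08, 1.57-fold), was its single call, and without replicate 3 of the arrays lacking Dox it was 0.58 and under 1.5-fold. It was 0.58 in Bub1b_R (adjusted p 1.82e-07, 1.49-fold), 0.44 on Chek1_R-labelled arrays (adjusted p 5.74e-06), 0.28 in Control_R (adjusted p 0.007) and −0.26 in Ppm1g_R (adjusted p 0.00382). Its change differed among the 4 clones with a targeted gene (F-test of limma, adjusted p 1.12e-07), as did that of 10 other histone probes, which is 11 of 46 where 24.0% of all probes passed.

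Hist1h1a was dim, with signals of 10.5 to 71.7, and was detected on 17 arrays. In Bub1b_R it was at 5.88, 5.76 and 5.77 with Dox and at 6.63, 6.32 and 6.32 without, which did not overlap, and rose by 0.62 log2 (SE 0.21, adjusted p 0.0285, 1.54-fold). In Control_R it was at 6.11, 6.19 and 6.42 with Dox and 6.01, 6 and 6.02 without, a change of −0.23 (adjusted p 0.57). The call in Bub1b_R was lost at an offset of 50 (0.42), and without +Dox replicate 2 (0.6), +Dox replicate 3 (0.61) or −Dox replicate 1 (0.52).

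The other tested linker gene, Hist1h1b, changed by 0.39 in Bub1b_R (adjusted p 0.0617) and by −0.21 to 0.18 in the others.

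Of the 10 H3 probes, that of Hist1h3f rose in Bub1b_R and on Chek1_R-labelled arrays. Its signals were 10.1 to 175.5, and it was detected on 21 arrays. In Bub1b_R its level was 5.77, 5.55 and 5.81 with Dox and 6.47, 6.39 and 6.19 without, a rise of 0.64 log2 (SE 0.14, adjusted p 0.00161, 1.56-fold). On Chek1_R-labelled arrays it was 6.09, 6.23 and 6.12 with Dox and 6.46, 6.98 and 6.78 without, a rise of 0.59 (SE 0.14, adjusted p 0.00252). Neither pair of groups overlapped.

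In Ppm1g_R, Hist1h3f was at 5.23, 5.77 and 5.4 with Dox, where 1 of 3 arrays detected it, and at 6.07, 5.86 and 5.83 without, where all did (0.45, adjusted p 0.0232). In Control_R it was at 5.79, 5.59 and 5.96 with Dox and 5.59, 5.3 and 5.72 without (−0.24, adjusted p 0.341), and in Ppp2r1b_R no array detected it. Both calls were lost at an offset of 50 (0.42 and 0.43), the one in Bub1b_R also without +Dox replicate 2 (0.56) or −Dox replicate 1 (0.58), and the one on Chek1_R-labelled arrays also without +Dox replicate 1 (0.56), +Dox replicate 3 (0.58), −Dox replicate 2 (0.47) or −Dox replicate 3 (0.57). Its other 2 probes were detected on no array.

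The remaining H3 probes were not called. Of all 10, 6 passed the adjusted p in Control_R and 5 in Bub1b_R, with Hist1h3f among the latter. All were upward, where 4.07% and 11.6% of all probes were higher. Hist2h3b, of the second cluster, was 0.45 log2 higher without Dox in Ppp2r1b_R (adjusted p 0.000129), 0.29 in Control_R (adjusted p 0.0194), 0.27 on Chek1_R-labelled arrays (adjusted p 0.00931), 0.25 in Bub1b_R (adjusted p 0.0183) and −0.12 in Ppm1g_R (adjusted p 0.3). The more intense probe of Hist2h3c1, its neighbor, ran alongside, at 0.36 in Ppp2r1b_R (adjusted p 0.00038) and −0.06 in Ppm1g_R (adjusted p 0.566).

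Of the 13 H2A probes, 4 passed the adjusted p on withdrawal in Ppm1g_R, all of them higher without Dox, where 11.6% of all probes were higher. In the same comparison limma passed 0 of the 9 H2B probes (1 at an unadjusted p under 0.05), and 0 of the 13 H2A probes passed once the change in Control_R was taken off (2 at an unadjusted p under 0.05). On withdrawal the t-test called none of the histone probes in this clone, and 1 H2A probe, Hist1h2ah, passed on Chek1_R-labelled arrays. The probes in Ppm1g_R were Hist1h2ad (0.17), Hist1h2ah (0.22), Hist1h2ak (0.21) and Hist1h2ae. Hist1h2ae was at 6.72, 6.49 and 6.74 with Dox and 7.06, 7.4 and 7.12 without, without overlap (0.54, SE 0.15, adjusted p 0.012, 1.45-fold). Its change was 0.22 in Control_R (adjusted p 0.44), and the difference between both changes was 0.32 (SE 0.22, adjusted p 0.376).

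Among H2B probes, Hist1h2bc was 0.36 log2 higher without Dox on Chek1_R-labelled arrays (adjusted p 0.00797) and lower in Ppp2r1b_R (−0.29, adjusted p 0.0353). Hist1h2bh (−0.24) and Hist1h2bn (−0.38) were also lower in Ppp2r1b_R past the adjusted p. Of the 11 H4 probes, 2 were higher in Bub1b_R (Hist1h4c, 0.47, adjusted p 0.045, and Hist1h4k, 0.42, adjusted p 0.00193), beside 11.6% of all probes. In Control_R 2 were higher (4.07% of all), and in Ppp2r1b_R Hist1h4h was lower (−0.43), where 12.9% of all probes were lower.

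**Figure D3:**
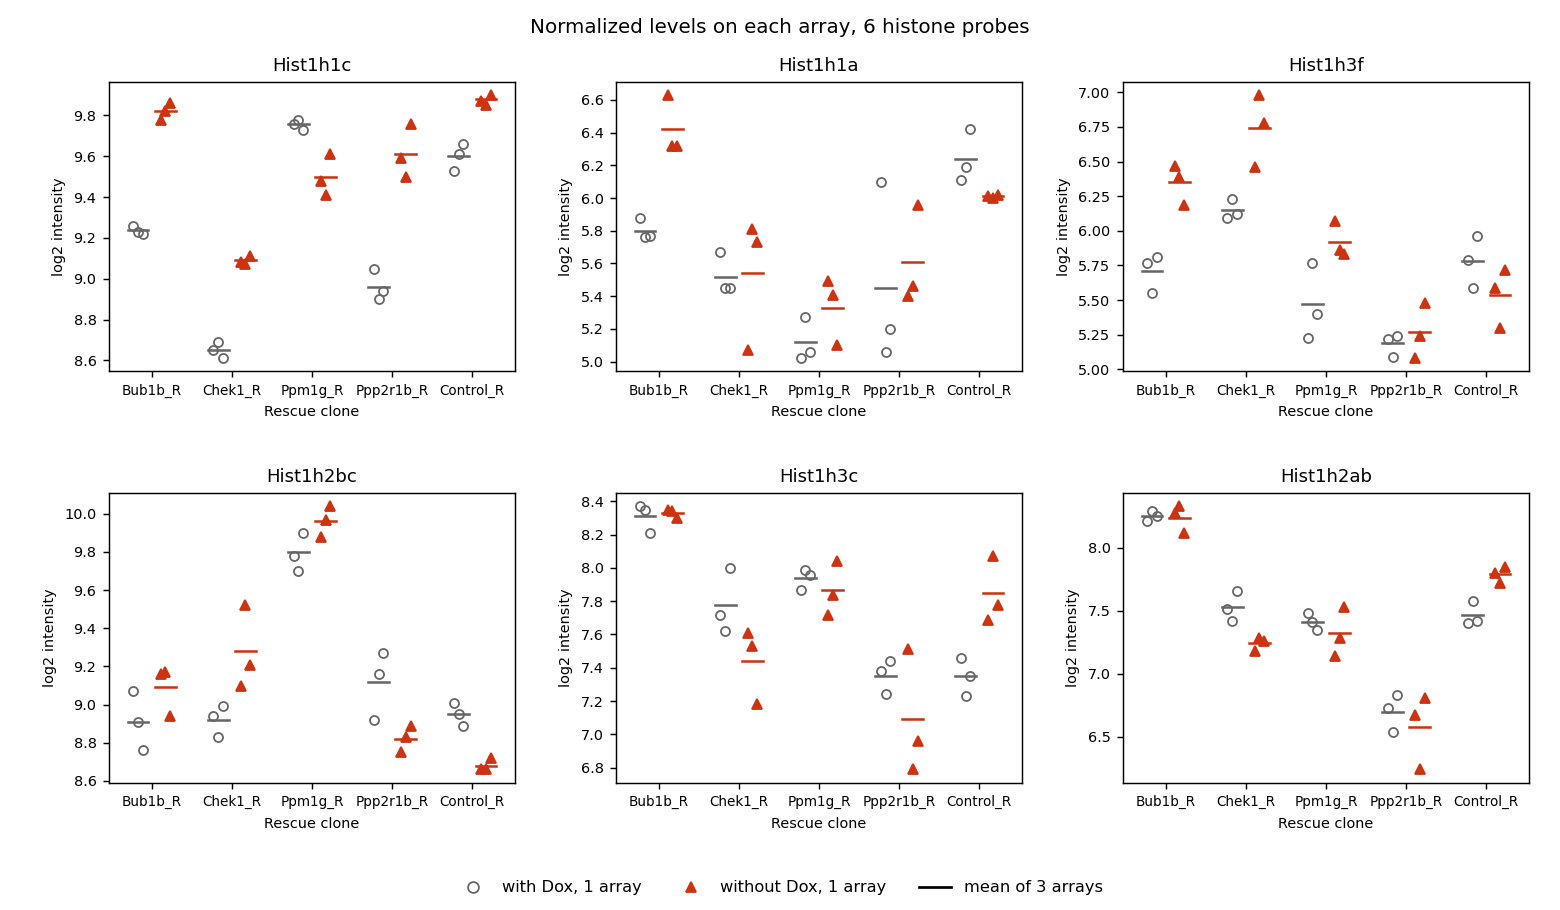
Normalized level (y axis, log2 intensity, a separate scale for each panel) of 6 histone probes on each array, by rescue clone (x axis); open circles are arrays with Dox, filled triangles arrays without, and bars the mean of 3 arrays. Hist1h1c lies higher without Dox in 4 clones and lower in Ppm1g_R, and Hist1h3f lies higher without Dox in Bub1b_R and on Chek1_R-labelled arrays.

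The change in each clone was next set against that in Control_R, so that what 5 days without Dox did in the control clone was taken off. Of the 46 probes, 1 differed in Bub1b_R (5.15% of all probes), 4 on Chek1_R-labelled arrays (8.99%), 1 in Ppm1g_R (5.27%) and 1 in Ppp2r1b_R (3.28%). The 4 differences share the Control_R arrays.

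Hist1h3f differed upward in Bub1b_R (0.88 log2, SE 0.2, adjusted p 0.00468), on Chek1_R-labelled arrays (0.83, adjusted p 0.00486) and in Ppm1g_R (0.69, adjusted p 0.0248). The last call was lost without any 1 of 5 arrays, Ppm1g_R +Dox replicates 1 (0.57) and 3 (0.66), −Dox replicate 1 (0.62), and Control_R +Dox replicate 3 (0.61) and −Dox replicate 2 (0.58). It was also lost without background correction and in a fit of the arrays compared alone. At an offset of 50 the calls in Bub1b_R and Ppm1g_R were both lost.

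Hist1h3c, another H3 gene of the first cluster, differed downward on Chek1_R-labelled arrays (−0.84, SE 0.2, adjusted p 0.00449) and in Ppp2r1b_R (−0.77, adjusted p 0.02). In Control_R it was at 7.46, 7.23 and 7.35 with Dox and at 7.69, 8.07 and 7.78 without, a change of 0.5 (adjusted p 0.0325). On Chek1_R-labelled arrays it was at 7.72, 7.62 and 8 with Dox and 7.61, 7.53 and 7.18 without (−0.34, adjusted p 0.0766). In Ppp2r1b_R it was at 7.38, 7.24 and 7.44 with Dox and 7.51, 6.79 and 6.96 without, which overlapped. Both the upward change in Control_R and the downward ones enter these differences. The call in Ppp2r1b_R was lost without its −Dox replicate 2 (−0.62), Control_R +Dox replicate 2 (−0.71) or Control_R −Dox replicate 2 (−0.65).

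Hist1h2ab, an H2A gene, ran in the same directions as Hist1h3c in Control_R and on Chek1_R-labelled arrays. It was at 7.4, 7.58 and 7.42 with Dox and 7.8, 7.72 and 7.85 without in Control_R, and at 7.51, 7.42 and 7.66 with Dox and 7.18, 7.28 and 7.26 without on Chek1_R-labelled arrays. Neither change passed alone (0.32, adjusted p 0.0818, and −0.29, adjusted p 0.0541), while the difference did (−0.61, SE 0.16, adjusted p 0.0079). Hist1h2bc ran the opposite way, from 9.01, 8.95 and 8.89 to 8.66, 8.66 and 8.72 in Control_R and from 8.94, 8.83 and 8.99 to 9.1, 9.52 and 9.21 on Chek1_R-labelled arrays, with a difference of 0.62 (SE 0.14, adjusted p 0.00272). The Hist1h2ab call fell short of 1.5-fold without Chek1_R +Dox replicate 3 (−0.55), Control_R +Dox replicate 1 or Control_R −Dox replicate 3 (−0.58 each), and that of Hist1h2bc without Chek1_R +Dox replicate 2 (0.58) or −Dox replicate 2 (0.5).

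More histone probes differed between clones and Control_R in the same medium. Of the 46 probes, 25 differed in at least 1 of the 8 such comparisons (59.7% of all probes did) and 21 in none, where 3 changed in any withdrawal (15.6% of all). All probes thus also differed more often between clones than on withdrawal. For Bub1b_R the comparison stays within 1 array set. For the other clones it crosses both sets, so that clone and set cannot be told apart.

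In Bub1b_R with Dox, 8 histone probes differed from Control_R (12.7% of all probes did), 7 of them higher (6.60%) and 1 lower (6.09%). Without Dox 3 differed (22.6%), 2 higher (10.9%) and 1 lower (11.7%). With Dox, 5 of the 7 higher probes were H3 genes of the first cluster, Hist1h3a (0.64), Hist1h3c (0.96, adjusted p 7.32e-06), Hist1h3d (0.62), Hist1h3e (0.64) and Hist1h3h. The others were Hist1h2ab (0.78) and Hist1h2bk (0.69).

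Hist1h3h was the one that differed in both media. It was at 7.9, 7.62 and 7.74 in Bub1b_R and 6.78, 6.33 and 6.85 in Control_R with Dox, and at 8.09, 7.81 and 7.76 against 6.72, 6.83 and 6.78 without. The groups were far apart in each medium (1.1, SE 0.2, adjusted p 0.000115, and 1.11, SE 0.2, adjusted p 6.4e-05), in 9 of 9 array pairs. Withdrawal itself changed it by 0.13 in Bub1b_R (adjusted p 0.697).

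Hist1h3e was at 10.93, 11 and 10.98 in Bub1b_R and 10.37, 10.23 and 10.38 in Control_R with Dox. Without Dox it was at 11.26, 11.16 and 11.12 against 10.66, 10.66 and 10.64, a difference of 0.52 (adjusted p 1.98e-06) that fell just short of 1.5-fold. This was the case for several others, and with the adjusted p alone 19 probes were higher and 6 lower in Bub1b_R without Dox (25.9% and 27.0% of all probes). The probe lower than in Control_R without Dox was that of Hist2h2be, an H2B gene, detected on 0 of 3 arrays of Bub1b_R and 3 of 3 of Control_R and at least 1.52-fold lower (adjusted p 0.000131). For such a bound, the mean in the clone that detected the probe was divided by a mean taken, array by array, from the lowest detected signal or the probe's own, whichever was higher.

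On Chek1_R-labelled arrays, 7 probes differed from Control_R with Dox (17.6% of all), 2 higher (9.75%) and 5 lower (7.81%). Without Dox 9 differed (28.8%), 4 higher (14.1%) and 5 lower (14.6%). The H1 genes were lower. Hist1h1c differed by −0.95 with Dox (adjusted p 2.02e-11) and −0.79 without (adjusted p 1.29e-10), Hist1h1b by −0.97 and −0.78, and Hist1h1a by −0.71 with Dox. Hist2h2aa1 was lower in both media (−0.74 and −0.68, the latter short of 1.5-fold without Control_R −Dox replicate 1, at −0.54). Hist1h3f (1.2, adjusted p 1.35e-07) and Hist1h2bc (0.59, adjusted p 1.92e-05) were higher without Dox, and each also differed upward in its change on withdrawal. The Hist1h2bc call fell short of 1.5-fold without Chek1_R −Dox replicate 2 (0.47) or Control_R −Dox replicate 1 (0.58), and under median scaling (0.35, or 0.59 relative to the median of the tested probes).

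In Ppm1g_R, 8 probes differed with Dox (29.1% of all), 4 higher (14.8%) and 4 lower (14.3%). Without Dox 10 differed (33.5%), 2 higher (16.7%) and 8 lower (16.8%). Hist1h2bc was at 9.78, 9.7 and 9.9 with Dox and 9.88, 9.97 and 10.04 without, above all Control_R arrays, which were at 8.66 to 9.01 (0.85, adjusted p 1.16e-07, and 1.28, adjusted p 9.47e-11). Under median scaling the difference with Dox was 0.49 and under 1.5-fold, and relative to the median of the tested probes 0.79. Of the H1 genes, Hist1h1c was higher than in Control_R with Dox (0.16, adjusted p 0.0324) and lower without (−0.37, adjusted p 1.32e-05), both under 1.5-fold, and the other 2 were lower. Hist1h1b, detected on none of the 3 arrays with Dox, was at least 2.28-fold lower with Dox and differed by −0.92 without, and Hist1h1a, undetected in both media, was at least 1.55-fold lower with Dox and at least 1.29-fold without, the latter call being lost without Ppm1g_R −Dox replicate 3 (−0.56).

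In Ppm1g_R without Dox, 4 of the 11 H4 probes were lower than in Control_R and none higher. Hist1h4k was at 7.11, 7.19 and 7.19 against 8.13, 8.05 and 8.22 (−0.97, SE 0.09, adjusted p 4.24e-09), and also differed with Dox (−0.64, or −0.55 and short of 1.5-fold without Control_R +Dox replicate 1). Hist1h4j (−0.64) and Hist1h4m (−0.66) differed without Dox, and Hist1h4c was undetected in Ppm1g_R and at least 1.05-fold lower.

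In Ppp2r1b_R the most histone probes differed, but their share of the 46 was below that of all probes with Dox (19.6%) and near it without (34.8%). With Dox 9 probes differed (28.3% of all), 2 higher and 7 lower (14.2% and 14.1%). Without Dox 16 differed (33.7%), 3 higher and 13 lower (16.6% and 17.1%). The lower ones without Dox spanned H2A, H2B, H3 and H4, among them Hist1h2ab (−1.21, adjusted p 1.68e-09), Hist1h2bf (−0.75, adjusted p 7.44e-10), Hist1h2bk (−0.79, adjusted p 1.86e-09), Hist1h3c (−0.76), Hist1h3e (−0.71, adjusted p 1.12e-08) and Hist1h4j (−0.71).

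Among the lower probes Hist1h2ae, an H2A gene, differed by the most, at 5.9, 5.48 and 5.89 in Ppp2r1b_R and 7.05, 6.63 and 6.77 in Control_R with Dox (−1.06, adjusted p 2.6e-06), and at 6.2, 5.59 and 5.59 against 7.08, 7.03 and 7 without (−1.24, adjusted p 1.86e-07). The array of Ppp2r1b_R at 6.2 was the nearest to Control_R. The H2A gene Hist1h2an was higher without Dox (0.61), a call lost without Ppp2r1b_R −Dox replicate 1 (0.58) or Control_R −Dox replicate 1 (0.57). Its direction turned under median scaling (−0.66, and −0.30 relative to the median of the tested probes).

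Median scaling gave the arrays the same median, taken over every probe on them, in place of equal quantiles. In the comparisons that cross both array sets, the median difference of the tested probes was then −0.24 to −0.43 log2. Calls moved downward, among histones as among all tested probes. The size of the move differed between probes, so a value relative to this median does not undo it. Without Dox the histone calls then numbered 1 higher and 21 lower on Chek1_R-labelled arrays (4 and 5 by quantiles), 1 and 24 in Ppm1g_R (2 and 8) and 0 and 28 in Ppp2r1b_R (3 and 13). Of all probes 39.1%, 48% and 48.6% were then called in these clones, of which 26.7%, 22.3% and 21.6% were higher. With Dox the histone calls numbered 1 and 13 (2 and 5), 1 and 13 (4 and 4) and 0 and 25 (2 and 7), where 31.8%, 44.3% and 49.3% of all probes were called and 20.2%, 24% and 16.1% of those were higher. In Bub1b_R without Dox they were 9 higher and 1 lower (2 and 1), and in Ppm1g_R minus Control_R on withdrawal 1 and 4 (1 and 0).

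**Figure D4:**
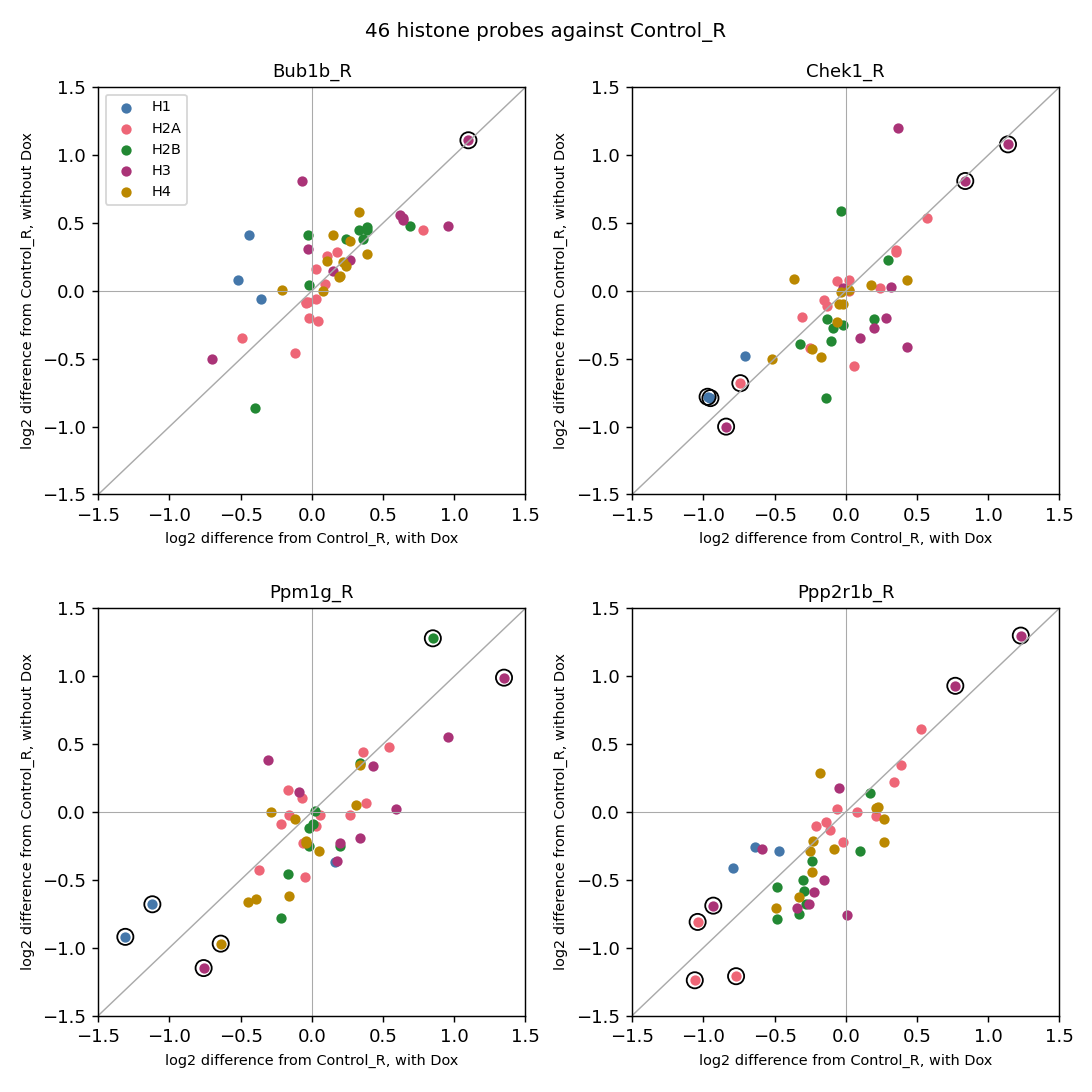
Difference of each of the 46 histone probes from Control_R (log2, mean of 3 arrays minus mean of 3) with Dox (x axis) and without Dox (y axis), in 1 panel per rescue clone, colored by histone class; black circles mark probes called in both media and the diagonal marks equal differences. Circled points, 1 in Bub1b_R and 6 in each of the other clones, lie on the same side of 0 in both media.

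Some of the probes that differed from Control_R with Dox also differed without it. In the same direction in both media there was 1 in Bub1b_R (12.5% of the 8 with Dox and 33.3% of the 3 without), 6 on Chek1_R-labelled arrays (85.7% and 66.7%), 6 in Ppm1g_R (75% and 60%) and 6 in Ppp2r1b_R (66.7% and 37.5%), and none differed in opposite directions. Over all probes the shares of calls with Dox and without Dox were 82.6% and 46.4% in Bub1b_R, 74.5% and 45.5% on Chek1_R-labelled arrays, 77.3% and 67.1% in Ppm1g_R and 80.2% and 67.3% in Ppp2r1b_R.

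The H3 genes of the second cluster split by array set. The more intense of the 2 Hist2h3c1 probes was at 10.46, 10.36 and 10.35 with Dox and 10.7, 10.52 and 10.83 without in Control_R, and at 10.63, 10.49 and 10.51 and then 10.9, 10.86 and 10.75 in Bub1b_R. In the other 3 clones it was at 11.47 to 12.03. No array of one set reached those of the other.

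Against Control_R the same probe was higher on Chek1_R-labelled arrays (1.14 with Dox and 1.08 without, adjusted p 3.81e-12 and 1.92e-12), in Ppm1g_R (1.35 and 0.99, adjusted p 5.86e-14 and 8.9e-12) and in Ppp2r1b_R (1.23 and 1.3, adjusted p 2.72e-13 and 5.82e-14), and not past 1.5-fold in Bub1b_R (0.15 in both). Under median scaling the 6 values were 0.17 to 0.64, 4 of them under 1.5-fold, and 0.51 to 0.94 relative to the median of the tested probes.

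The second Hist2h3c1 probe went the opposite way. It was dim, with detection on 14 arrays, and was at 6.27, 5.94 and 6.56 with Dox and 6.36, 6.39 and 6.35 without in Control_R, where every array detected it, and at 4.98 to 6.01 elsewhere. It was lower than in Control_R in all 4 clones with Dox, the only histone probe called the same way in all 4 (4.80% of all probes were, with Dox), by −0.7 in Bub1b_R (adjusted p 0.00155), by −0.84 on Chek1_R-labelled arrays (adjusted p 0.000214), and by at least 1.57-fold in Ppm1g_R and at least 1.43-fold in Ppp2r1b_R. The call in Bub1b_R fell short of 1.5-fold without its +Dox replicate 1 (−0.58) or Control_R +Dox replicate 3 (−0.55). Without Dox no histone probe was called the same way in all 4 (9.40% of all). Thus the 2 probes of one gene went in opposite directions from Control_R in 3 clones.

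Hist2h3b was at 11.05, 11.04 and 11.22 with Dox and 11.36, 11.32 and 11.52 without in Control_R, and at 11.93, 11.85 and 11.84 and then 12.28, 12.39 and 12.31 in Ppp2r1b_R. The differences, 0.77 and 0.93 (adjusted p 9.18e-09 and 2.36e-10), became −0.24 and 0.08 under median scaling. The median difference of the tested probes was then −0.43 with Dox and −0.36 without. Relative to that median they were at 0.19 and 0.44. Such a value does not undo the scaling, which in the same comparison with Dox moved the dim Hist1h1a only from −0.79 to −0.8.

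**Figure D5:**
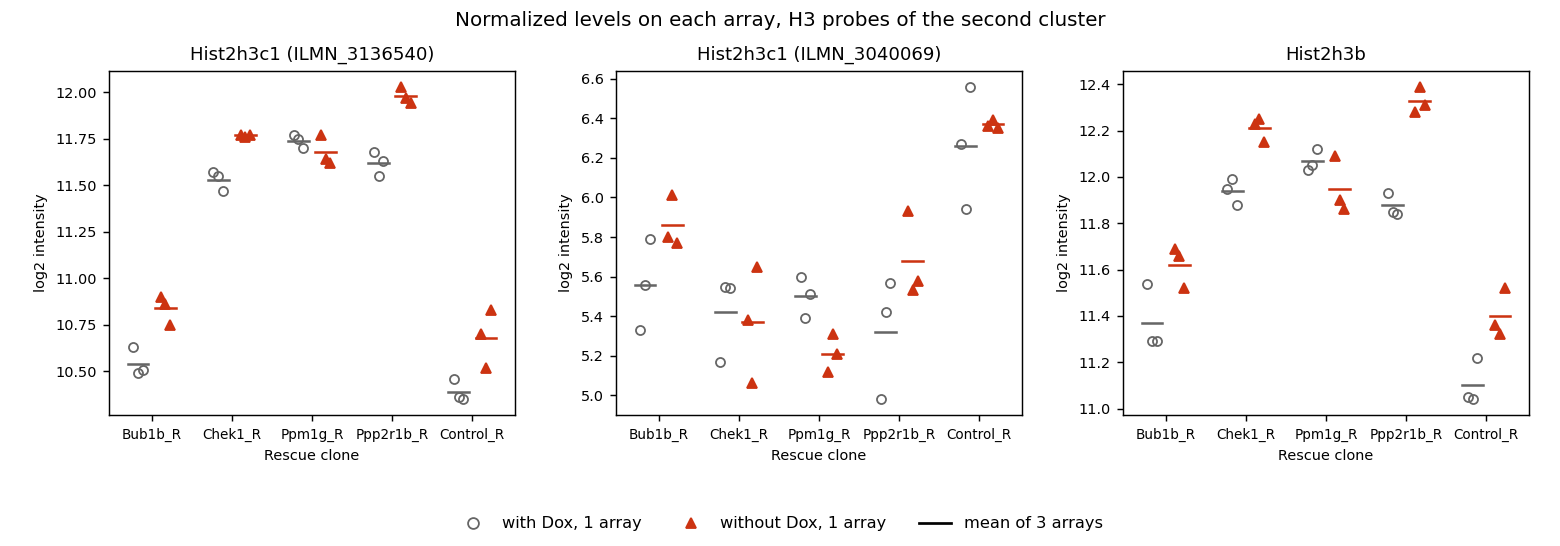
Normalized level (y axis, log2 intensity, a separate scale for each panel) of both Hist2h3c1 probes and of Hist2h3b on each array, by rescue clone (x axis); open circles are arrays with Dox, filled triangles arrays without, and bars the mean of 3 arrays. The left and right probes are lowest in Control_R and Bub1b_R, and the middle, dim probe is highest in Control_R.

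Other genes of histone biology were read on withdrawal from lists written by hand with earlier results of these data known. Of 8 tested genes for replication-independent histone variants, most of which are made through the whole cycle from mRNAs with poly(A) tails, 1 changed at 1.5-fold. The linker histone H1f0 rose in Bub1b_R (0.75 log2, SE 0.17, adjusted p 0.00201) and on Chek1_R-labelled arrays (0.79, adjusted p 0.000829), and none changed at 1.5-fold elsewhere. Its change also differed from that in Control_R in both (1 and 1.04, adjusted p 0.00728 and 0.00325). H1f0 is known to build up as cells leave the cycle and differentiate. The list's median change was −0.08 to 0.15. With the adjusted p alone, 4 were higher and 3 lower in Bub1b_R (11.6% and 12.8% of all probes). On Chek1_R-labelled arrays 2 were higher and 0 lower (14.5% and 16.5%), in Ppp2r1b_R 2 and 1 (12.4% and 12.9%) and in Control_R 1 and 0 (4.07% and 3.48%). In Ppm1g_R limma passed 0 of 8, and 2 had an unadjusted p under 0.05.

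Of 13 tested genes for the 3′ end of histone mRNA and its control, such as Lsm10 and Lsm11 of the U7 particle, none changed in any clone at 1.5-fold, and the list's median was −0.05 to 0.13. By the adjusted p alone, 1 passed in Control_R (5 at an unadjusted p under 0.05), 2 on Chek1_R-labelled arrays (3), 3 in Ppm1g_R (3) and 2 in Ppp2r1b_R (3). In Bub1b_R limma passed 0 of 13, and 1 had an unadjusted p under 0.05. Of all probes, 7.55% passed the adjusted p in Control_R, 30.9% on Chek1_R-labelled arrays, 23.4% in Ppm1g_R, 25.3% in Ppp2r1b_R and 24.4% in Bub1b_R. Slbp itself was not tested.

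Of 17 tested histone chaperones, Atrx, which helps to load the variant H3.3, rose in Ppm1g_R (0.75, adjusted p 0.000228) and by at least 1.42-fold in Control_R (adjusted p 0.00145). Its change in Ppp2r1b_R differed from that in Control_R by −0.74 (adjusted p 0.0183). No other chaperone of the list changed by 1.5-fold on withdrawal in any clone. By the adjusted p alone 5 passed in Bub1b_R, 2 on Chek1_R-labelled arrays, 4 in Ppm1g_R, 6 in Ppp2r1b_R and 3 in Control_R. Of all probes 24.4%, 30.9%, 23.4%, 25.3% and 7.55% passed, in the same order.

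Of 23 tested S phase genes, Ccne2, which encodes a cyclin of the entry into S phase, rose in all 5 clones, by 1.08 log2 in Bub1b_R (adjusted p 1.57e-05), 0.86 on Chek1_R-labelled arrays (adjusted p 0.00015), 0.67 in Ppm1g_R (adjusted p 0.00301), 0.69 in Ppp2r1b_R (adjusted p 0.00252) and 0.65 in Control_R (adjusted p 0.0125). No other gene of the list changed at 1.5-fold. With the adjusted p alone, 4 were lower and 1 higher in Bub1b_R (12.8% of all probes were lower), 5 and 2 on Chek1_R-labelled arrays (16.5%), 4 and 2 in Ppm1g_R (11.7%), 8 and 2 in Ppp2r1b_R (12.9%) and 0 and 3 in Control_R (3.48%), and the list's medians were −0.17 to 0.06. The summed level of the list was 43300 to 44000 in Ppp2r1b_R with Dox and 39100 to 39900 without, against 51000 to 55900 and 51200 to 52200 in Control_R.

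The samples were bulk RNA, in which fewer cells of a kind and less RNA per cell cannot be told apart. All 7 tested markers of ESCs were detected on all 30 arrays. Their summed normalized intensity was lower without Dox in every clone, at 18200 to 18400 against 26700 to 28200 in Ppp2r1b_R and 30300 to 31500 against 33600 to 34700 in Control_R. The sum of 6 primitive streak and mesoderm markers (T, Mixl1, Evx1, Eomes, Mesp1 and Lhx1) was 999 to 1070 with Dox and 5380 to 5490 without in Bub1b_R. On Chek1_R-labelled arrays it was 222 to 250 with Dox and 3120 to 3250 without. In Ppm1g_R it was 965 to 1010 and 2160 to 2380, in Ppp2r1b_R 390 to 407 and 1130 to 1290, and in Control_R 208 to 270 and 237 to 277. Undetected markers entered these sums near background. On all 3 arrays, 4 of the 6 were undetected in Ppp2r1b_R in both media, on Chek1_R-labelled arrays with Dox and in Control_R with Dox (3 without). With Dox 3 were undetected in Ppm1g_R and 2 in Bub1b_R. For fibroblast feeders, 6 of 9 markers were tested, Col1a2, Lum and Postn were not, and their sum was 845 to 1390 over all arrays. The part of such shifts in the histone results was not tested.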

How the data were processed

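RNA of 30 samples (5 rescue clones, with Dox and 5 days without, 3 arrays each) was read on single-color bead arrays. The authors deposited 1 table of signal intensity per probe and array, not normalized, with a detection p-value beside each signal. The submitters' processing notes name lumi without a version, and how the scanner made the deposited intensity is not given in the sources used here. A further clone, Aurka_R, was not analysed here. In 2 columns the deposited detection p-value had been turned into a date in 46 cells (Ppm1g_R without Dox, replicate 2) and 14 cells (Bub1b_R without Dox, replicate 2). The p-value was read back from the date in 28 and 6 cells and set to that of the nearest signal on the array in 18 and 8, and no such cell was of a histone probe.

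In R 4.3.3 with limma 3.58.1, signals were background corrected (neqc, from the detection p-values, offset 16), set to equal quantiles and taken to log2. Probes detected (p under 0.05) on at least 3 arrays were tested, 15151 in all. One limma fit of the 10 condition means (20 residual and 3.38 prior degrees of freedom) gave 17 comparisons and an F-test of the change on withdrawal among the 4 targeted clones, each adjusted by Benjamini-Hochberg over all tested probes. A call was an adjusted p under 0.05 with at least 1.5-fold. The fit was tested on simulated data. The number of arrays limits the precision.

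The members and gene lists were chosen with earlier results of these data known. Named were probes called on withdrawal, up to 6 called per direction in comparisons with Control_R and in differences of changes, the most intense probe of each class, genes with several tested probes, called genes of the related lists (up to 3 per direction) and the targeted genes. The other probes named were chosen after their values were seen. Promoter windows came from RefSeq (GRCm38.p6). Alternatives were another offset, no background correction, median scaling, a stricter detection limit, other fold limits, a t-test on each probe, fits of the arrays compared alone, a replicate block and leaving out each array.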

Additional observations from a re-analysis of the deposited data

Results flagged for a closer look

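The change on Dox withdrawal differed from that in Control_R by limma's interaction test for 4 histone probes. By clone, 1 of 46 differed in Bub1b_R (5.15% of all probes), 4 on Chek1_R-labelled arrays (8.99%), 1 in Ppm1g_R (5.27%) and 1 in Ppp2r1b_R (3.28%). In no clone was the histone share above that of all probes. For Hist1h3f the difference was 0.88 log2 in Bub1b_R (adjusted p 0.00468), 0.83 on Chek1_R-labelled arrays (adjusted p 0.00486) and 0.69 in Ppm1g_R (adjusted p 0.0248). This probe was dim, and its calls in Bub1b_R and Ppm1g_R were lost at an offset of 50. For Hist1h3c it was −0.84 on Chek1_R-labelled arrays (adjusted p 0.00449) and −0.77 in Ppp2r1b_R (adjusted p 0.02). For Hist1h2bc it was 0.62 (adjusted p 0.00272) and for Hist1h2ab −0.61 (adjusted p 0.0079), both on Chek1_R-labelled arrays.

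Among the 4 targeted clones, the change differed for 11 of 46 histone probes by limma's F-test. That is 23.9%, beside 24.0% of all probes, so histone probes passed no more often than others. The adjusted p was 1.12e-07 for the linker histone Hist1h1c, which was higher without Dox in 3 of these clones and lower in Ppm1g_R. It was 0.00303 for Hist2h3b and 0.00864 for the more intense probe of Hist2h3c1, both H3 genes of the second cluster. Among H2B genes it was 0.00857 for Hist1h2bc, 0.0107 for Hist1h2bf, 0.0223 for Hist1h2bh and 0.0278 for Hist1h2bn. It was 0.015 for Hist1h3d and 0.0193 for Hist1h3e, and among H4 genes 0.0148 for Hist1h4k and 0.0273 for Hist1h4h. With 3 arrays per condition, no condition was tested for an outlying array.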

How the results depend on the processing

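Clones are given in the order Bub1b_R, Chek1_R, Ppm1g_R, Ppp2r1b_R unless named, and values are numbers of called histone probes of 46. The main numbers were 2, 1, 0 and 1 on withdrawal, 1, 4, 1 and 1 for the change minus that in Control_R, 8, 7, 8 and 9 against Control_R with Dox, and 3, 9, 10 and 16 without. Of 70 pairs of a named probe and a comparison, with 1159 alternative values, 972 values kept direction and side of the limits, 185 kept the direction and were no longer past the limits, and 2 reversed. With 3 arrays per condition and many dim histone probes, changes near 1.5-fold are poorly separated from the limit. Except where an alternative tests fewer arrays or moves the limit itself, the cause was not tested.

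At a limit of 2-fold the numbers were 1, 1, 3 and 3 with Dox, 1, 3, 2 and 3 without, 0 on withdrawal in Bub1b_R, on Chek1_R-labelled arrays and in Ppp2r1b_R, and 0 in each clone minus Control_R. With no fold limit they were 17, 20, 22 and 24 with Dox, 25, 27, 26 and 28 without, 11, 6, 7 and 7 on withdrawal (11 in Control_R), and 3, 9, 9 and 6 minus Control_R. An offset of 50 gave 0 on withdrawal in Bub1b_R and on Chek1_R-labelled arrays, 1, 5 and 5 without Dox in the first 3 clones, 4 and 5 with Dox on Chek1_R-labelled arrays and in Ppm1g_R, and 0, 2 and 0 minus Control_R in the first 3 clones. An offset of 200, chosen after seeing the data, gave 0, 3, 3 and 2 with Dox, 0, 3, 2 and 7 without, 0 on withdrawal in Bub1b_R, on Chek1_R-labelled arrays and in Ppp2r1b_R, and 0 in each clone minus Control_R. A larger offset shrinks the change of dim probes by construction.

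Median scaling gave 14, 14 and 25 with Dox on Chek1_R-labelled arrays, in Ppm1g_R and in Ppp2r1b_R, 10, 22, 25 and 28 without Dox, 2 on withdrawal in Ppp2r1b_R, 2 and 5 minus Control_R in Bub1b_R and Ppm1g_R, and 6 by the F-test (11 by quantiles). Under it Hist1h2an (−0.66, without Dox) and Hist2h3b (−0.24, with Dox) changed sign in Ppp2r1b_R. Relative to the median difference of the tested probes, which does not undo the scaling, they were at −0.30 and 0.19. Without background correction 0 were called on withdrawal on Chek1_R-labelled arrays and 2 in Ppm1g_R, and 0 in Ppm1g_R minus Control_R. A detection limit of 0.01 gave 2 in Bub1b_R minus Control_R. Fits of the arrays compared alone gave 3, 0 and 0 minus Control_R in Bub1b_R, Ppm1g_R and Ppp2r1b_R. The t-test after Benjamini-Hochberg called 0 on withdrawal on Chek1_R-labelled arrays and in Ppp2r1b_R.

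Without 1 array, the numbers on withdrawal were 0 to 3 in Bub1b_R (0 without +Dox replicate 2, 3 without +Dox replicate 1), 0 to 1 on Chek1_R-labelled arrays (0 without +Dox replicate 1 or 3 or −Dox replicate 2 or 3), 0 to 1 in Ppm1g_R (1 without +Dox replicate 2 or 3 or −Dox replicate 1), 0 to 1 in Ppp2r1b_R (0 without −Dox replicate 3) and 0 to 0 in Control_R. Minus Control_R they were 1 to 2 in Bub1b_R (2 without Control_R +Dox replicate 2), 3 to 5 on Chek1_R-labelled arrays, 0 to 4 in Ppm1g_R (4 without −Dox replicate 3, 0 without +Dox replicate 1 or 3, −Dox replicate 1, Control_R +Dox replicate 3 or Control_R −Dox replicate 2) and 0 to 2 in Ppp2r1b_R (0 without −Dox replicate 2, Control_R +Dox replicate 2 or Control_R −Dox replicate 2, 2 without Control_R +Dox replicate 3). Against Control_R they were 7 to 8, 7 to 9, 7 to 9 and 8 to 10 with Dox and 3 to 6 (6 without Bub1b_R −Dox replicate 3), 7 to 10, 9 to 12 and 14 to 18 without, and by the F-test 8 to 13.

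Same-numbered arrays with and without Dox of a clone did not deviate together (correlations −0.08 to 0.13 in 15 pairs, 1 over 0.1, against −0.16 to 0.14 in 30 pairs of different number, 4 over 0.1), nor did those of a clone and Control_R in the same medium (−0.21 to 0.12 in 24 pairs, 1 over 0.1). The numbers were therefore not taken as a pairing. With the replicate number as a block, 2, 1, 0 and 1 were called on withdrawal, 1, 5, 1 and 1 minus Control_R, 8, 7, 8 and 9 with Dox, 3, 9, 10 and 16 without Dox, and 11 by the F-test.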
